A study of Mus musculus with 6 samples.

Results

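The 48 genes described here encode the machinery of mitosis: cyclins and their kinases, the chromosomal passenger complex, kinetochore proteins, the spindle checkpoint, condensin, spindle and cytokinesis proteins, partners of the ubiquitin ligase that ends mitosis, and a pair of transcription factors. They were chosen by symbol from the 16423 genes of the deposited expression table, and all 48 were found there. The cells were of the line C3H10T1/2, mouse mesenchymal stem cells with the capacity to form adipocytes. Confluent cells in medium with 10% fetal bovine serum received 0.5 mM IBMX, 1 µM dexamethasone, 850 nM insulin, 1 nM triiodothyronine, 125 nM indomethacin and 1 µM rosiglitazone for 2 days. Triiodothyronine, insulin and rosiglitazone were kept on for 2 more days, and small interfering RNAs were transfected on day 4. The siYBX1 group (3 libraries, genotype labelled YBX1 knockdown) received siRNAs against Ybx1, whose product is a nucleic acid-binding protein with a cold-shock domain. The siNC group (3 libraries, genotype labelled WT) received a control siRNA. RNA was taken 48 h after transfection. Both groups carried the same differentiation treatment, so the comparison asks how these transcripts differ when Ybx1 is reduced in cells already induced to become adipocytes.

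Mitosis starts when CDK1, bound to a B-type or A-type cyclin, phosphorylates many proteins, and condensin folds the chromosomes. Kinetochores attach the chromosomes to the spindle, the checkpoint holds the cell until all are attached, and the anaphase-promoting complex (APC/C) then marks cyclin B and securin for destruction. Most of these genes are transcribed late in the cell cycle and are low in cells that have stopped dividing, so their mRNA is widely used as a sign of dividing cells. Many of their promoters carry CCAAT boxes, which the factor NF-Y binds, and a cell cycle homology region (CHR), which complexes built on the MuvB core bind.

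The library totals behind the values were 31957411 to 35410308 reads in siYBX1 and 34207232 to 35299269 reads in siNC. Values are FPKM, read fragments scaled by gene length and by the total of the library. Ybx1 itself was at 59.3, 67.9 and 61.3 FPKM in siYBX1, against 135, 134 and 130 FPKM in siNC, which left 47.3% of the control level. The adipocyte genes Fabp4 and Adipoq averaged 1755 ± 200.1 and 584 ± 21.2 FPKM in siYBX1, and 1481 ± 299 and 617 ± 130 FPKM in siNC (SD, n = 3 each). Of brown fat genes, Cidea and Cox8b were present at 19.6 and 134 FPKM in siYBX1 and 21.2 and 113 FPKM in siNC, Ppargc1a was below 1 FPKM in all 6 libraries, and Prdm16 was listed at 0 in 4 of 6. Of other cell types, the summed level of 12 mesenchymal progenitor markers was 5994 to 6307 FPKM in siYBX1 and 5506 to 5657 FPKM in siNC, of which Vim and S100a4 made up 5469 to 5763 and 4936 to 5067 FPKM. Without these 2 the sum of the other 10 ran the other way, at 521 to 545 FPKM in siYBX1 and 569.7 to 589 FPKM in siNC. Most of it was Ly6a, at 447, 462 and 439 FPKM in siYBX1 and 480, 497 and 498 FPKM in siNC (adjusted p = 0.126, limma). Of the 10, 6 had every siYBX1 library below every siNC library, against 21.9% of all tested genes. Of these 6, Cd34 and Pi16 were below 1 FPKM in all 6 libraries and were not tested. The summed level of 6 macrophage and leukocyte markers was 11.4 to 17.2 FPKM in siYBX1 and 15.9 to 29.5 FPKM in siNC, nearly all from Cd68 and Cd14. The highest sum came from siNC library 1, where Cd68 was at 24.3 FPKM, against 10.8 and 12.8 FPKM in siNC libraries 2 and 3. Cd68 was at 6.80, 9.47 and 11.1 FPKM in siYBX1, and the groups overlapped. Ptprc, Adgre1, Csf1r and Lyz2 were at most 0.106 FPKM in any library.

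Most of the mitotic transcripts fell. Of the 48 genes, 40 were lower in siYBX1 and 0 were higher at an adjusted p below 0.05 (limma). Over all 10341 genes tested, 11.1% were lower and 9.54% were higher. The median log2 fold change (siYBX1 minus siNC, on the log2(FPKM + 1) scale) of the 48 was -0.36, against -0.01 over all tested genes, and the median ratio of the means was 0.763. The falls were modest: the lowest log2 fold change was -0.55, and 46 of 48 were negative. For 43 genes all 3 siYBX1 libraries lay below all 3 siNC libraries, and for 0 they lay above, against 21.9% and 19% of all tested genes. The 8 genes that did not pass were Cdk1, Cks1b, Cks2, Spc24, Bub3, Mad2l1, Ube2s and Mybl2. In RNA from a whole culture, fewer dividing cells and less of these mRNAs in each cell cannot be told apart. The labels do not say whether the replicates were separate cultures, so the p-values reflect how far libraries differ within a group, and that spread may be technical.

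The libraries were not alike within the knockdown group. The median deviation of the 48 genes from the siNC mean, on the log2(FPKM + 1) scale, was -0.42, -0.28 and -0.40 in siYBX1 libraries 1 to 3, and 0.02, 0.01 and -0.02 in siNC libraries 1 to 3. Over all tested genes the same medians were -0.04, 0.00 and 0.01 in siYBX1. The second siYBX1 library thus lay nearest to the controls. It was the highest of its group for 43 of 48 genes, a count given without the share over all tested genes. Its Ybx1 level was also the highest of the 3; that link was not tested. Without it, 43 of the 48 genes were lower (limma), with 759 lower and 547 higher calls among all tested genes, where the full data gave 1145 and 987. Without siYBX1 replicate 1 the counts were 35 of the 48, 604 and 595, and without siNC replicate 3 they were 38 of the 48, 750 and 678. Without siYBX1 replicate 3, 34 of the 48 were lower. Over all tested genes, leaving out single libraries gave 604 to 1056 lower and 547 to 970 higher calls. Rescaling each library to TPM gave 43 lower and 0 higher among the 48, while its calls over all tested genes were 15.2% lower and 6.4% higher.

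**Figure D1:**
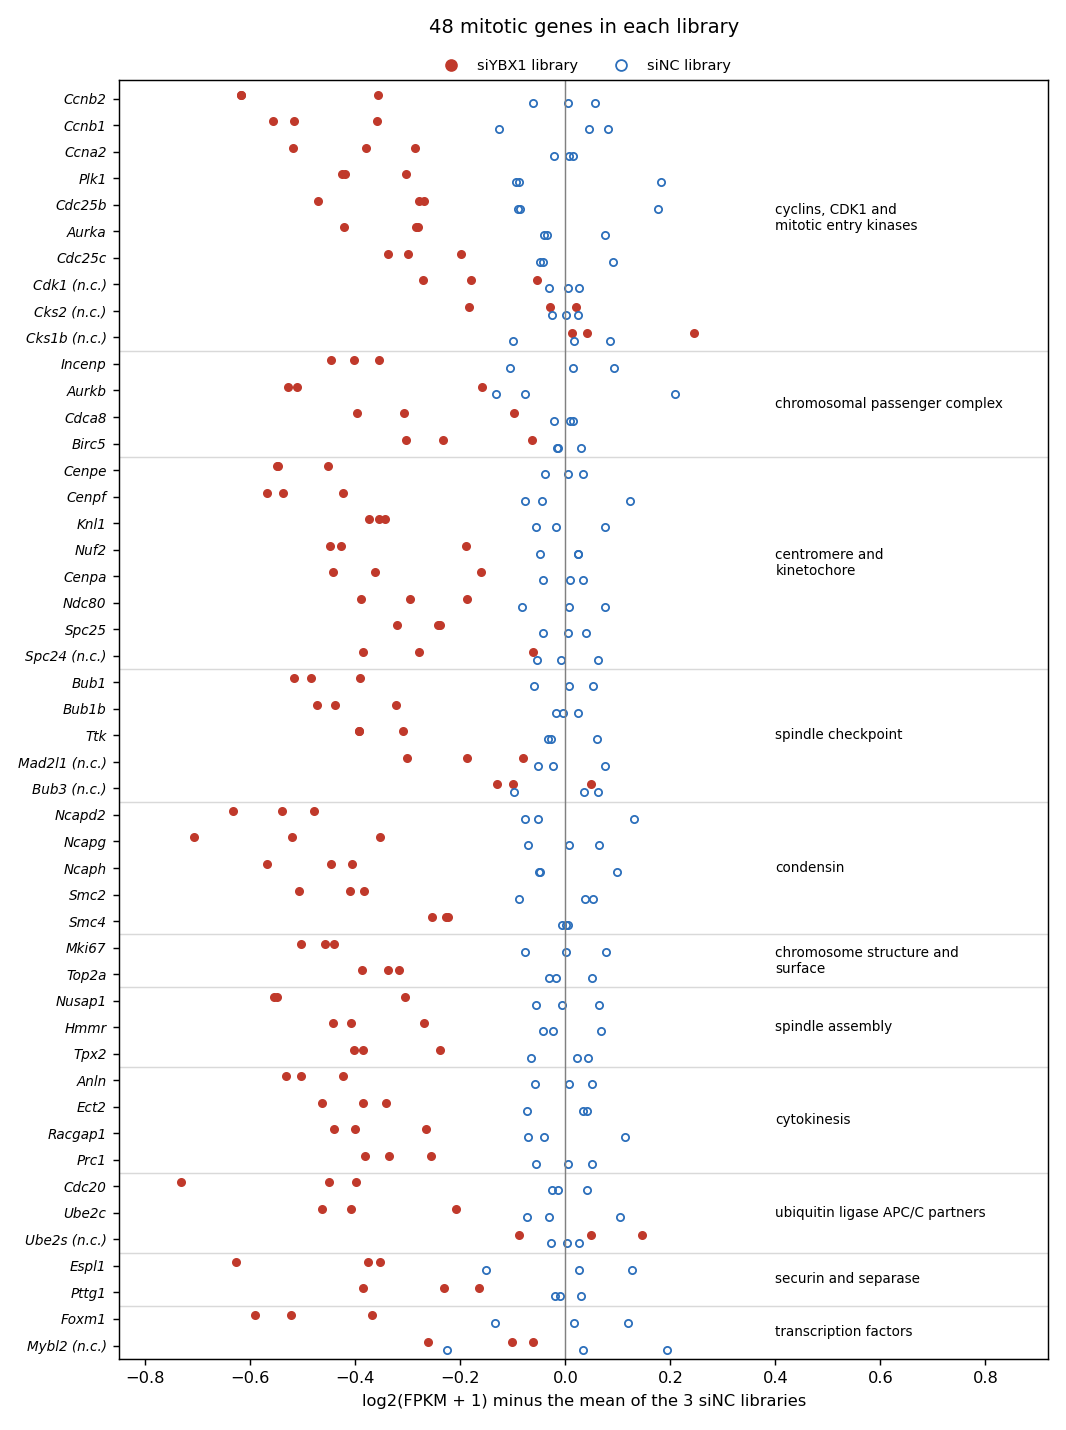
Deviation of each gene from its own siNC mean, on the log2(FPKM + 1) scale, for the 48 mitotic genes grouped by role. Filled points are the 3 siYBX1 libraries, open points the 3 siNC libraries, and n.c. marks genes that did not pass the test. In 43 genes every filled point lies left of every open point.

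Promoter sequences are shown for the 3 genes with the lowest log2 fold changes, on the log2(FPKM + 1) scale, among those with an entry in the promoter table. So that both ends of the range can be compared, the only 2 of the 48 genes with a positive difference are added. Of these 2, Ube2s turned negative under other scalings. The sequences come from RefSeq on build GRCm38.p6 and cover 250 bases before and 50 after the annotated start site. All 5 genes lie on the minus strand and are printed 5′ to 3′ along the gene. The windows are chr6:125191537-125191836 for Ncapd2, a subunit of condensin I, chr9:70421505-70421804 for Ccnb2, cyclin B2, and chr4:118437294-118437593 for Cdc20, an activator of the APC/C. Those of the genes at the other end are chr7:4812291-4812590 for Ube2s, a ubiquitin-conjugating enzyme of the APC/C, and chr3:89418242-89418541 for Cks1b, a small subunit of cyclin-dependent kinases. Capitals mark 3 motifs, each sought on both strands. The CCAAT box is CCAAT and reads ATTGG on the other strand. A CHR element is TTTGAA, which reads TTCAAA on the other strand, and the variant TTCGAA reads the same on both. The TATA box is TATAAA and reads TTTATA on the other strand. In all the promoters of the mitotic genes, 1 pair of matches of different motifs overlapped.
Ncapd2: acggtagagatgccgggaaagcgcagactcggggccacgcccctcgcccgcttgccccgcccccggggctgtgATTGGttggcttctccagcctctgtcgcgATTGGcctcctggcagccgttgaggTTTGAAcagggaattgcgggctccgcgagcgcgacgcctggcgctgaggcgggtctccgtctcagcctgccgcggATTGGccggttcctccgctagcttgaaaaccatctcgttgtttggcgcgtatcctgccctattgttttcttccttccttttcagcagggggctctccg
Ccnb2: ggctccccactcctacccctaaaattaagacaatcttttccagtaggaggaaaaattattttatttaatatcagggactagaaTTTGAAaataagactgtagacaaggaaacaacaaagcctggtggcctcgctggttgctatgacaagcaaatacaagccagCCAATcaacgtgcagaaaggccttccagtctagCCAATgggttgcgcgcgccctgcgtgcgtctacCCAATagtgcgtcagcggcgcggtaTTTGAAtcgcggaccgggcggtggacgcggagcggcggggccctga
Cdc20: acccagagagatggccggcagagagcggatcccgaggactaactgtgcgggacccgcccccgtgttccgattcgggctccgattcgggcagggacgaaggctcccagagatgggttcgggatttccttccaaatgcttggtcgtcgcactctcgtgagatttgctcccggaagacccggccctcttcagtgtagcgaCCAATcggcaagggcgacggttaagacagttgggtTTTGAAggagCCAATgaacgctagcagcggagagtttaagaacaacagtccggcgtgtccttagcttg
Ube2s: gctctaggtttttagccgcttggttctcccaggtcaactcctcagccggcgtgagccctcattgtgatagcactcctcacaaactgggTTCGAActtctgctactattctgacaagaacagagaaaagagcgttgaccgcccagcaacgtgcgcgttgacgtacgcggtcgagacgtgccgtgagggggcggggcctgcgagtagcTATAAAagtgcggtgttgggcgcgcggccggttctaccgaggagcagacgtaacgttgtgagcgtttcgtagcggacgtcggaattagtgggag
Cks1b: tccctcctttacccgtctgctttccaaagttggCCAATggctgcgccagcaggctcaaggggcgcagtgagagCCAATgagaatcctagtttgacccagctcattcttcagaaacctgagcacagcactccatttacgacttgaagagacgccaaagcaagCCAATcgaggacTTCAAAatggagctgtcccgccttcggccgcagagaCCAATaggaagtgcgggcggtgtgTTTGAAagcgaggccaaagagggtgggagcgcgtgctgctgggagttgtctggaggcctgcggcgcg

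Ccnb2 has 3 CCAAT boxes at -87, -54 and -21 bases from the start, then a CHR element at 5, and a further CHR element far upstream at -167. Cdc20 has its CHR element at -18 between CCAAT boxes at -53 and -8. Ncapd2 has 3 CCAAT boxes and 1 CHR element, and the CHR element is at -123. Cks1b, whose difference was positive, has 4 CCAAT boxes and 2 CHR elements. Ube2s has no CCAAT box in this window, 1 CHR element at -162, and a TATA box at -44, the only one among the promoters examined here. The letters alone thus do not separate Cks1b from the genes that fell.

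Of the 48 genes, 40 had a promoter in the table; Tpx2, Aurkb, Cdc25c, Smc4, Ccna2, Spc24, Foxm1 and Incenp did not. A CCAAT box was found in 29 of 40 (72.5%), against 39.8% of 8357 tested genes and 37.9% of all 27025 genes with a promoter. At least 1 CHR element was found in 30 (75%), against 13.9% of tested genes and 19.4% of all. Both motifs stood together in 26 (65%), against 6.15% and 7.7%. In each of these 26, a CHR element lay downstream of a CCAAT box, as it did in 278 of the 514 tested genes that hold both. The shortest distance between their first bases had a median of 33.5 bases (quartiles 25 and 50) in the 26 mitotic genes and of 38 bases (quartiles 23 and 84) in the 278. The motifs were also frequent in 46 promoters of mitosis genes outside the 48 that fell, a list described below. There a CCAAT box was found in 60.9%, a CHR element in 58.7% and both in 41.3%. Among those of the 48 genes with a promoter, both motifs were present in 23 of the 33 that fell and in 3 of the 7 that did not pass (Cdk1, Bub3 and Cks1b). Neither motif was found for Ncaph, Nusap1, Nuf2, Pttg1 and Birc5, which fell, nor for Mad2l1 and Mybl2. These matches are strings in a fixed window and do not show binding.

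**Figure D2:**
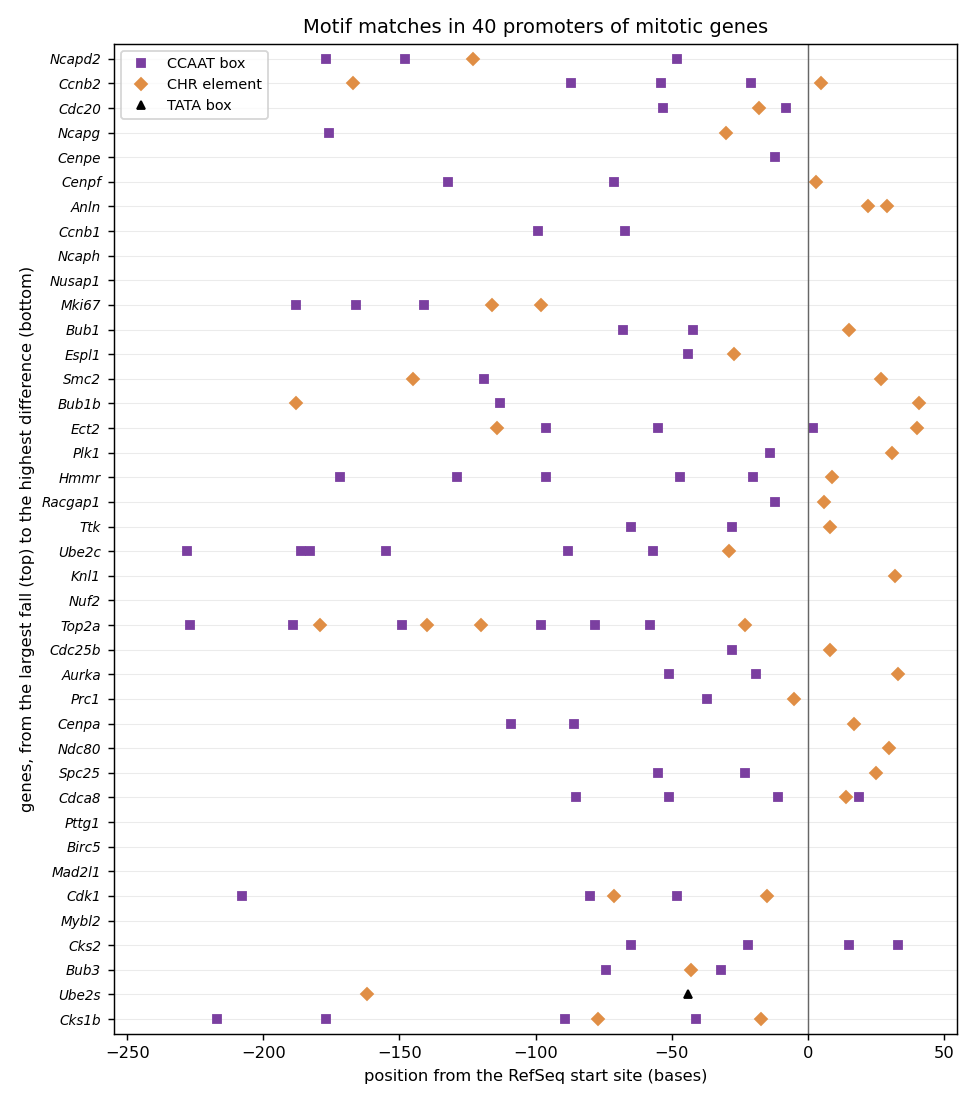
Positions of CCAAT boxes (squares), CHR elements (diamonds) and the TATA box (triangle) in the promoters of 40 mitotic genes. The x axis is the distance from the RefSeq start site in bases, and genes run from the lowest log2 fold change at the top to the highest at the bottom. CCAAT boxes have their median at -68 and CHR elements at -15, and 3 of the 7 genes that did not pass (Cdk1, Bub3 and Cks1b) carry both motifs.

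Of the 10 cyclins, cyclin-dependent kinase subunits and mitotic entry kinases, 7 fell and 3 did not pass. Ccnb2 had 20.9, 25.2 and 20.9 FPKM in siYBX1, against 31.2, 33.9 and 32.7 FPKM in siNC. Ccnb1, cyclin B1 and the main partner of CDK1 at mitotic entry, had 27.0, 31.1 and 27.8 FPKM in siYBX1, against 36.7, 41.5 and 42.6 FPKM in siNC. For both B-type cyclins every siYBX1 library was below every siNC library. Ccnb2 was 31.5% lower and Ccnb1 28.9% lower by the means, and limma gave Ccnb2 a log2 fold change of -0.53 (SE 0.07) with an adjusted p of 0.00109, and Ccnb1 one of -0.48 (SE 0.07) with an adjusted p of 0.00160. The others that fell were Ccna2 (cyclin A2), the phosphatases Cdc25b and Cdc25c, which switch CDK1 on, and the kinases Plk1 and Aurka, with log2 fold changes between -0.40 for Ccna2 and -0.28 for Cdc25c. Without siYBX1 replicate 1, Cdc25b (adjusted p = 0.0672, limma) and Cdc25c (0.0544) did not pass, and without siYBX1 replicate 3 Cdc25c did not (0.0537).

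The 3 genes that did not pass were the kinase itself and its small partners. Cdk1 had 16.2, 17.7 and 15.1 FPKM in siYBX1, against 18.8, 18.0 and 18.5 FPKM in siNC. The groups did not overlap, but the gap between siYBX1 replicate 2 and the lowest control was small. Its log2 fold change of -0.17 (95% confidence interval -0.31 to -0.03) had an adjusted p of 0.0813 (limma). It passed without siYBX1 replicate 2 (-0.23, adjusted p = 0.0449, limma) and after rescaling to TPM (-0.23, adjusted p = 0.0325). Cks1b and Cks2 encode small proteins that bind CDKs. Cks1b had 75.0, 86.5 and 73.5 FPKM in siYBX1, against 73.6, 67.9 and 77.3 FPKM in siNC. Cks2 had 57.1, 59.2 and 51.2 FPKM in siYBX1, against 58.4, 57.3 and 59.3 FPKM in siNC. Both pairs of groups overlapped. The intervals of the log2 difference were -0.06 to 0.26 for Cks1b and -0.20 to 0.07 for Cks2, so a fall of Cks1b as large as that of the B-type cyclins lies outside its interval, and so does one of Cks2. The adjusted p was 0.343 for Cks1b and 0.470 for Cks2 (limma).

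All 4 genes of the chromosomal passenger complex fell. This complex places the kinase Aurora B at centromeres, where it corrects faulty attachments, and later at the midzone of the spindle. Incenp, its scaffold, had 14.4, 15.4 and 14.8 FPKM in siYBX1, against 21.3, 20.1 and 18.5 FPKM in siNC. Aurkb, Aurora B itself, had 10.2, 13.5 and 10.3 FPKM in siYBX1, against 17.7, 13.7 and 14.3 FPKM in siNC. Neither gene's groups overlapped, but the highest siYBX1 value of Aurkb came close to the lowest siNC value. Both means were 25.6% lower in siYBX1, with an SE of 0.06 for Incenp (adjusted p = 0.00203, limma) and of 0.11 for Aurkb (adjusted p = 0.0277, limma). Aurkb did not pass without siYBX1 replicate 1 (adjusted p = 0.0980), siYBX1 replicate 3 (0.0966) or siNC replicate 1 (0.0573). Cdca8 (borealin, log2 fold change -0.27) and Birc5 (survivin, -0.20) fell least. Cdca8 did not pass in 4 of the 6 analyses without 1 library, those without siYBX1 replicate 1 or 3 and without siNC replicate 2 or 3 (adjusted p = 0.0641 to 0.0969, limma). Birc5 only just passed (adjusted p = 0.0498, limma), and it no longer did so in 9 of 14 other analyses, among them 5 of the 6 that leave out a library, all but that without siYBX1 replicate 2 (adjusted p = 0.0780 to 0.154).

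Of 8 centromere and kinetochore genes, 7 fell. The largest falls were those of Cenpe, a kinesin that moves chromosomes to the spindle equator, and Cenpf, a large protein of the outer kinetochore. Cenpe had 5.56, 5.57 and 6.02 FPKM in siYBX1, against 8.35, 8.64 and 8.83 FPKM in siNC. Cenpf had 7.36, 7.18 and 8.04 FPKM in siYBX1, against 10.5, 12.2 and 10.8 FPKM in siNC. In both genes the 2 groups were well apart, and the spread within siYBX1 was small. Cenpe was 33.6% lower (log2 fold change -0.52, SE 0.06, adjusted p = 0.000418, limma), while Cenpf was 32.5% lower (-0.51, SE 0.07, adjusted p = 0.00105, limma). The 3 tested subunits of the NDC80 complex that fell, the part of the kinetochore that grips microtubules, did so by less: Nuf2 by 0.36, Ndc80 by 0.29 and Spc25 by 0.27 on the log2 scale. Their partner Spc24 had 5.69, 6.78 and 5.22 FPKM in siYBX1, against 7.07, 6.83 and 7.48 FPKM in siNC. Its groups were barely apart, with siYBX1 replicate 2 next to siNC replicate 2. The difference was -0.24 (95% confidence interval -0.43 to -0.06, adjusted p = 0.0615, limma), and without siYBX1 replicate 2 it was -0.33 (adjusted p = 0.0204). Ndc80 did not pass without siYBX1 replicate 3 (adjusted p = 0.0528). Cenpa, the histone variant that marks centromeres, fell by 0.32 (20.7% by the means). Knl1, which recruits checkpoint proteins, fell by 0.36. It averaged 1.97 FPKM in siYBX1 and 2.80 FPKM in siNC, which is 29.9% lower, and at such levels this scale understates the change.

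In the spindle checkpoint, 3 of 5 genes fell. Bub1, a kinase that brings other checkpoint proteins to kinetochores, had 7.83, 8.64 and 8.04 FPKM in siYBX1, against 12.1, 11.7 and 11.1 FPKM in siNC. Bub1b, which encodes BUBR1 of the complex that inhibits the APC/C, had 13.3, 14.8 and 13.6 FPKM in siYBX1, against 19.1, 18.7 and 18.6 FPKM in siNC. For both, siYBX1 and siNC libraries formed separate tight groups. Bub1 was 29.9% lower (log2 fold change -0.46, SE 0.06, adjusted p = 0.000793, limma), while Bub1b was 26.1% lower (-0.41, SE 0.06, adjusted p = 0.00106, limma), and the kinase gene Ttk fell by 0.37. Mad2l1, which encodes MAD2 of the same inhibitory complex, had 20.4, 22.0 and 18.8 FPKM in siYBX1, against 23.0, 24.7 and 22.5 FPKM in siNC. Its groups did not overlap, yet the difference of -0.19 (95% confidence interval -0.34 to -0.04) did not pass (adjusted p = 0.0648, limma); without siYBX1 replicate 2 it did (adjusted p = 0.0444). Bub3, the partner that docks BUB1 and BUBR1 on kinetochores, had 58.2, 64.5 and 56.9 FPKM in siYBX1, against 58.2, 63.9 and 65.2 FPKM in siNC. These groups overlapped, and the interval of the difference was -0.20 to 0.08 (adjusted p = 0.538, limma).

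All 5 condensin genes fell, with a median log2 fold change of -0.47. Condensin I folds chromosomes into compact rods and consists of the ATPases SMC2 and SMC4 and the subunits encoded by Ncapd2, Ncapg and Ncaph. Ncapd2 had 12.4, 13.9 and 13.3 FPKM in siYBX1, against 21.8, 19.1 and 18.7 FPKM in siNC, and its fall of 33.4% (log2 fold change -0.55, SE 0.07, adjusted p = 0.000638, limma) had the lowest log2 fold change of the 48. Ncapg had 6.04, 6.91 and 5.19 FPKM in siYBX1, against 9.56, 9.15 and 8.62 FPKM in siNC, a fall of 33.6% (-0.53, SE 0.09, adjusted p = 0.00272, limma). Neither gene's groups came near each other. The fall was 0.47 for Ncaph, 0.43 for Smc2 and 0.23 for Smc4 on the log2 scale. The subunits of a single complex thus differed in size of change. For Smc4 the interval of the difference was -0.35 to -0.12, and for Ncapd2 it was -0.70 to -0.40; the difference between the genes was not tested. Smc4 had the smallest spread of the 5, at 13.4 ± 0.163 FPKM in siYBX1 and 15.9 ± 0.0759 FPKM in siNC (SD, n = 3 each).

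Top2a, the topoisomerase that untangles sister chromatids, and Mki67, whose product Ki-67 coats mitotic chromosomes and marks dividing cells in pathology, both fell. Mki67 had 24.2, 25.0 and 25.3 FPKM in siYBX1, against 36.6, 34.7 and 32.8 FPKM in siNC. Top2a had 42.7, 43.3 and 41.2 FPKM in siYBX1, against 53.0, 56.2 and 53.5 FPKM in siNC. Both sets of libraries were far apart for their spread, and Mki67 fell by 28.5% (log2 fold change -0.47, SE 0.06, adjusted p = 0.000481, limma), while Top2a fell by 21.8% (-0.35, SE 0.05, adjusted p = 0.00132, limma).

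All 3 spindle assembly genes and all 4 cytokinesis genes fell. Nusap1, which bundles spindle microtubules, had 11.6, 13.9 and 11.5 FPKM in siYBX1, against 17.3, 18.2 and 16.7 FPKM in siNC. Hmmr, which helps to organise spindle poles, had 9.95, 11.4 and 10.2 FPKM in siYBX1, against 13.6, 14.6 and 13.5 FPKM in siNC. Nusap1 fell by 0.47 (SE 0.07, adjusted p = 0.00216, limma) and Hmmr by 0.37 (SE 0.06, adjusted p = 0.00333, limma) on the log2 scale, with no overlap in either, and Tpx2, which activates Aurora A on the spindle, fell by 0.34. Anln, the anillin that scaffolds the contractile ring, had 18.2, 19.3 and 17.8 FPKM in siYBX1, against 27.1, 26.3 and 25.1 FPKM in siNC. Ect2, the exchange factor that activates RhoA at the cleavage site, had 5.61, 5.81 and 5.26 FPKM in siYBX1, against 7.88, 7.83 and 7.21 FPKM in siNC. The groups were well separated in both. Anln fell by 29.7% (log2 fold change -0.49, SE 0.06, adjusted p = 0.000396, limma), with the lowest adjusted p of the 48, and Ect2 fell by 27.2% (-0.40, SE 0.06, adjusted p = 0.00234, limma). Racgap1 and Prc1, which build the central spindle, fell by 0.37 and 0.32.

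Among 3 partners of the APC/C, 2 fell. Cdc20 had 16.3, 20.8 and 20.1 FPKM in siYBX1, against 28.6, 27.3 and 27.5 FPKM in siNC. Ube2c, the enzyme that starts ubiquitin chains on APC/C substrates, had 49.6, 57.2 and 47.7 FPKM in siYBX1, against 71.2, 62.9 and 64.8 FPKM in siNC. Neither gene's groups overlapped, and siYBX1 replicate 1 was the lowest library for Cdc20. Cdc20 was 31.4% lower (log2 fold change -0.53, SE 0.08, adjusted p = 0.00182, limma), while Ube2c was 22.3% lower (-0.36, SE 0.07, adjusted p = 0.00770, limma). Ube2s, which lengthens the chains that Ube2c starts, had 75.9, 89.5 and 83.5 FPKM in siYBX1, against 80.9, 79.2 and 82.2 FPKM in siNC. The siYBX1 libraries lay on both sides of the controls. Its difference was 0.04 (95% confidence interval -0.10 to 0.17, adjusted p = 0.726, limma), and its sign turned without siYBX1 replicate 2 (-0.020) and under TPM (-0.017). The 2 chain-forming enzymes of the same ligase thus gave a call and no call; the difference between them was not tested.

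Separase, the protease that cuts cohesin at anaphase, and securin, which holds it inactive, both fell at the mRNA level. Espl1, the separase gene, had 2.68, 3.44 and 3.38 FPKM in siYBX1, against 5.20, 4.11 and 4.78 FPKM in siNC. Pttg1, the securin gene, had 10.0, 10.5 and 8.90 FPKM in siYBX1, against 11.9, 12.2 and 11.8 FPKM in siNC. The groups were apart in both genes. Espl1 fell by 32.6% (log2 fold change -0.45, SE 0.09, adjusted p = 0.00831, limma), while Pttg1 fell by 17.8% (-0.26, SE 0.07, adjusted p = 0.0194, limma). Pttg1 did not pass without siYBX1 replicate 3 (adjusted p = 0.0577) or siNC replicate 2 (0.0540).

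Foxm1 and Mybl2 encode transcription factors that join the MuvB core to activate late cell cycle genes. Foxm1 had 8.03, 9.54 and 8.47 FPKM in siYBX1, against 13.8, 11.4 and 12.8 FPKM in siNC. The groups did not overlap, and the fall was 31.3% (log2 fold change -0.49, SE 0.08, adjusted p = 0.00247, limma). Mybl2 was among the least abundant of the 48 genes, at 2.14, 2.61 and 2.51 FPKM in siYBX1, against 3.30, 2.22 and 2.85 FPKM in siNC. The groups overlapped, and the siNC libraries were spread more widely than the siYBX1 libraries. The difference of -0.14 had an interval of -0.37 to 0.09 (adjusted p = 0.353, limma), and without siNC replicate 2 it was -0.25 (adjusted p = 0.0858).

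**Figure D3:**
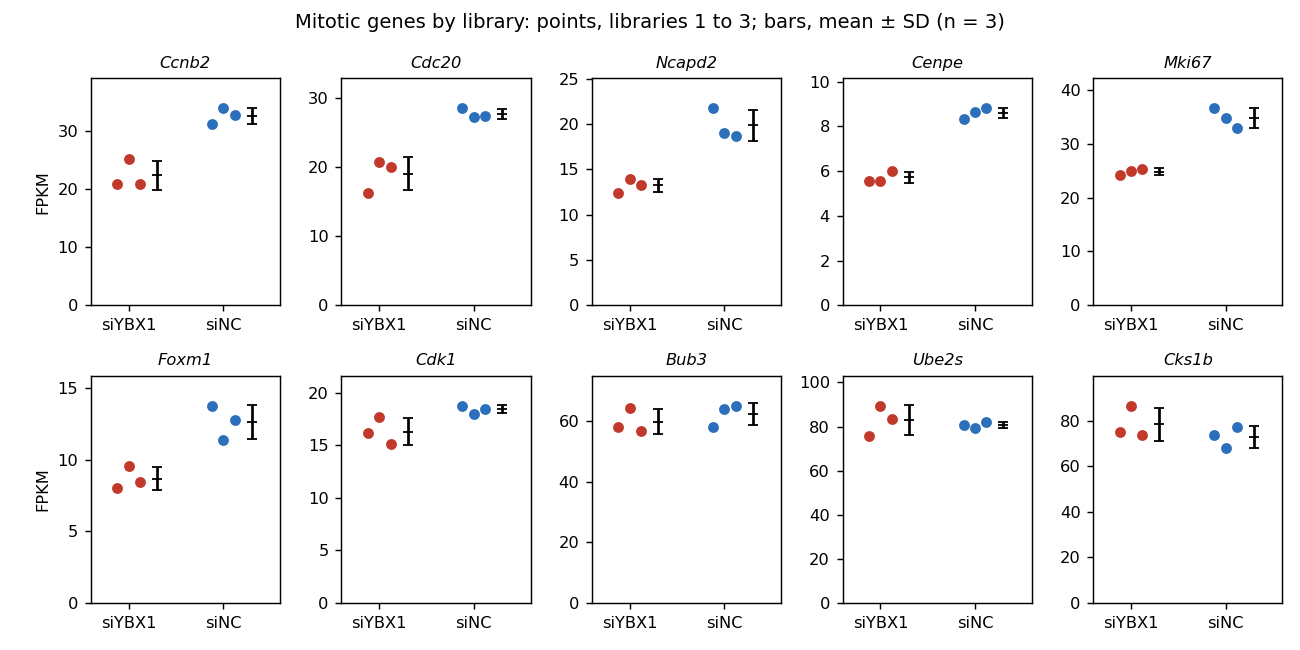
FPKM in each library for 10 of the genes described, siYBX1 left of siNC, with the mean ± SD of 3 libraries beside the points and each y axis starting at 0. In the first 6 panels (Ccnb2, Cdc20, Ncapd2, Cenpe, Mki67, Foxm1) every siYBX1 point lies below every siNC point, the Cdk1 groups are barely apart, and in Bub3, Ube2s and Cks1b the groups overlap.

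The genes that did not pass were mostly short and several were abundant. Gene lengths, recovered from the steps of the FPKM values, had a median of 1494 bases in the 8 genes that did not pass, 3132 bases in the 40 that fell and 3437 bases in all tested genes. Over the 48 genes the log2 fold change had a Pearson correlation of -0.55 and a Spearman correlation of -0.48 with log2 length, and over all 10341 tested genes these were -0.24 and -0.27. Such values describe genes measured in the same 6 libraries, which are not independent. With the tested genes cut into 5 bins of equal size by length, the median log2 fold change of all genes was 0.08 in the shortest bin and -0.07 in the longest. The mitotic genes lay below their bin throughout, at -0.24 in the shortest bin (6 of 11 fell, against 6.23% of all genes there) and -0.47 in the longest (7 of 7 fell, against 14.4%). When each library was corrected for the length trend, 42 of the 48 were lower and 0 higher, with Spc24 and Mad2l1 added. Calls over all tested genes under this correction are not given here. Cks1b was then at 0.00 (adjusted p = 0.969, limma). With log2 mean FPKM the Pearson correlation of the fold change was 0.32 and the Spearman correlation 0.18 over the 48, and these were 0.22 and 0.25 over all tested genes.

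**Figure D4:**
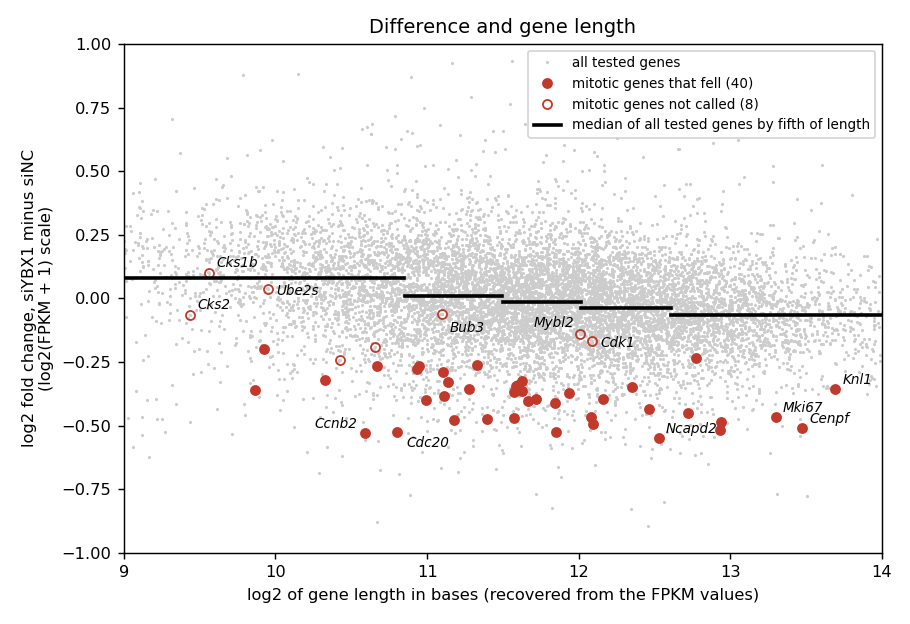
Log2 fold change (siYBX1 minus siNC) against log2 gene length in bases. Grey dots are all tested genes within the axis limits (9 to 14 and -1 to 1), filled circles the 40 mitotic genes that fell, open circles the 8 not called, and black bars the median of all tested genes in each of 5 length bins. The mitotic genes lie below the bars at nearly every length, except Cks1b.

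For 10 of the 48 genes, exons overlap those of another gene in the table, by the GENCODE annotation of GRCm38. The partners are Exosc9 for Ccna2, Spef1 for Cdc25b, 9930104L06Rik for Cdca8, Lcorl for Ncapg, Oip5 for Nusap1, Rccd1 for Prc1, Elovl1 for Cdc20, Tnnc2 for Ube2c, Rpl28 for Ube2s and Tex52 for Foxm1. All but Tex52 lie on the opposite strand. The labels do not say whether counting used strand, so values of these 10 genes are uncertain to the extent that reads of the partner were counted.

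The same test gave calls among mitosis genes outside the 48. Of 113 others listed by role, 110 were tested. Of these, 55 fell (50%, against 11.1% of all tested genes) and 2 rose (9.54% of all tested genes rose). Their median log2 fold change was -0.22, and the difference from the 48 was not tested. Of their spindle and cytokinesis genes, 17 of 19 were lower (89.5%) and 0 higher. Ckap2, a microtubule-associated protein, averaged 16.1 ± 0.969 FPKM in siYBX1 and 25.1 ± 1.22 FPKM in siNC (SD, n = 3 each; log2 fold change -0.61, adjusted p = 0.000214, limma), and Iqgap3, a scaffold protein, fell by 0.59. Of 18 tested mitotic kinases and regulators 13 fell (72.2%), with Mxd3, a transcription factor that binds MAX, at -0.58 and the kinase gene Melk at -0.51. Of 27 further centromere and kinetochore genes 13 fell (48.1%), led by Zwilch (-0.49), a part of the complex that recruits dynein, and Hjurp (-0.47), the chaperone that loads CENP-A. Zwint, a partner of KNL1, was the 1 that rose, at 104 ± 5.29 FPKM in siYBX1 and 84.4 ± 0.770 FPKM in siNC (SD, n = 3 each; 0.30, adjusted p = 0.00401, limma); it was singled out after its values were seen, and it passed in 14 of 14 other analyses.

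The genes listed for the APC/C, not all of them subunits, were called about as often as genes at large. Of 16 tested, 2 fell (12.5%, against 11.1% of all tested genes) and 1 rose, with a median of 0.00. Of the 2 that fell, 1 was Fbxo5, which encodes the APC/C inhibitor EMI1 and is not a subunit. It averaged 5.29 ± 0.655 FPKM in siYBX1 and 8.25 ± 0.500 FPKM in siNC (SD, n = 3 each; log2 fold change -0.56, adjusted p = 0.00131, limma). The other was the subunit gene Anapc1, at -0.18 (adjusted p = 0.0386, limma), and whether it passed in other analyses is not given here. Anapc10, a subunit that helps to bind substrates, was at 23.3 ± 0.887 FPKM in siYBX1 and 20.2 ± 1.35 FPKM in siNC (0.20, adjusted p = 0.0426, limma). It passed in 2 of 14 other analyses, with adjusted p between 0.0378 and 0.134, and in 0 of the 6 without 1 library. Among 15 further condensin and cohesin genes, 6 fell (40%), with the cohesin protectors Sgo2a (-0.43) and Sgo1 (-0.37) first. The others that fell were Cdca5 (-0.35) and the further condensin genes Ncapd3 (-0.35), Ncapg2 (-0.29) and Ncaph2 (-0.21). The cohesin ring gene Smc1a was at -0.03 (95% confidence interval -0.14 to 0.08) and Smc3 at 0.01 (-0.12 to 0.14). Rad21, also of cohesin, was at -0.13 and did not pass (adjusted p = 0.098, limma), though its groups did not overlap. All of these but Sgo2a and Sgo1 were named after their values were seen, Smc1a and Smc3 as a comparison with Smc2 and Smc4. Of 15 genes of the MuvB core and other cell cycle transcription regulators, 4 fell (26.7%). The lowest was E2f8, a repressor of the E2F family, at -0.46 (adjusted p = 0.0112, and 0.0727 with no filter, limma). Next came Nfya, a subunit of the CCAAT-binding factor NF-Y, at -0.30 (adjusted p = 0.00981, limma). The others that fell were Rbl2 at -0.23 (adjusted p = 0.0417, limma) and Rbl1 at -0.21 (adjusted p = 0.0417, limma). The other NF-Y subunits did not pass, with Nfyb at 0.00 (95% confidence interval -0.17 to 0.17, adjusted p = 0.999, limma) and Nfyc at -0.11 (-0.23 to 0.02, adjusted p = 0.196, limma). Nor did the MuvB core genes Lin9, Lin37, Lin52, Lin54 and Rbbp4, with log2 fold changes from -0.16 for Lin54 to 0.11 for Lin9. These subunits, Rbl1 and Rbl2 were named after their values were seen. The Nfya libraries were at 10.2, 12.1 and 11.7 FPKM in siYBX1 and 14.3, 14.1 and 14.2 FPKM in siNC, with no overlap.

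**Figure D5:**
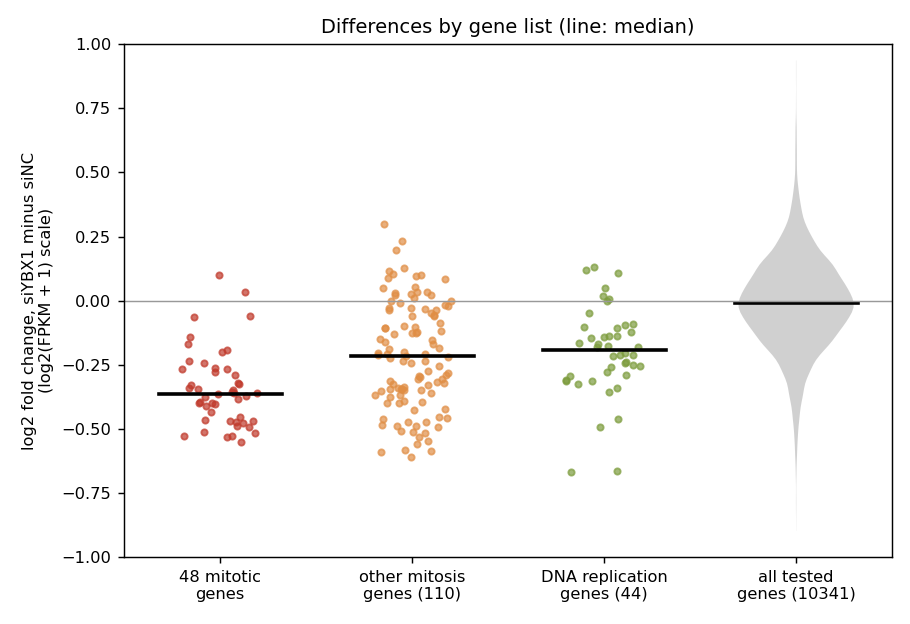
Log2 fold changes (siYBX1 minus siNC, log2(FPKM + 1) scale) of the 48 mitotic genes, 110 other mitosis genes and 44 DNA replication genes, each point a gene and each black line a median, beside the distribution of all 10341 tested genes within the axis limits. The medians are -0.36, -0.22, -0.19 and -0.01.

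Genes of DNA replication, which act earlier in the cell cycle than mitosis, gave 21 of 44 lower (47.7%, against 11.1% of all tested genes) and 0 higher. Their median log2 fold change was -0.19. The lowest were Rrm2 at -0.67 (adjusted p = 0.000113, limma) and Uhrf1 at -0.66 (adjusted p = 0.000298, limma), both below the lowest of the 48 (-0.55). In siYBX1 libraries 1 to 3 the median deviation from the siNC mean was -0.24, -0.12 and -0.22 for the 44 replication genes. It was -0.29, -0.16 and -0.24 for the 110 other mitosis genes. Both lists therefore repeat the order seen in the 48, with the second siYBX1 library nearest to the controls. Of the CDK inhibitor genes, 4 were tested. Cdkn1a, which encodes p21, was the 1 that passed, at 149 ± 5.31 FPKM in siYBX1 and 132 ± 5.58 FPKM in siNC (SD, n = 3 each; log2 fold change 0.18, adjusted p = 0.0463, limma). It passed in 4 of 14 other analyses, and of those without 1 library only in that without siNC replicate 1.

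Of 11 tested adipocyte markers 2 were lower (18.2%, against 11.1% of all tested genes) and 0 higher, and their summed level was 3540 to 4089 FPKM in siYBX1 and 3239 to 4145 FPKM in siNC. Of 7 tested progenitor markers 2 were lower (28.6%) and 0 higher: Eng at -0.39 (adjusted p = 0.0142, limma) and Cd44 at -0.23 (adjusted p = 0.0117, limma). Of 6 macrophage and leukocyte markers 2 were tested and 0 passed. The part of any of these cells in the fall of the mitotic genes was not tested.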

How the data were processed

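RNA-seq libraries of 3 siYBX1 and 3 siNC samples were compared. Libraries were made from 1.3 µg of total RNA with a VAHTS Universal V5 kit, per the labels' protocols. Tools listed in the submitters' processing notes are fastp, HISAT2 and HTSeq, with the build GRCm39 and no versions or roles; strandedness is not given in the sources used here. The authors deposited 1 table of FPKM values for 16423 gene symbols, with 1 column per library, named con or si with a number and matched to siNC and siYBX1 by those names.

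The values move in steps of 1 read, and whole reads were recovered for all 16423 genes (100%, tolerance 0.01 reads) with the library totals and gene lengths. A single read on a 2 kb gene equals 0.0141 to 0.0156 FPKM at these totals, so low values are coarse.

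Genes averaging at least 1 FPKM across the 6 libraries were tested with limma 3.58.1 in R 4.3.3, on log2(FPKM + 1), two-sided, trend fitted and no covariate, with Benjamini-Hochberg adjustment over all 10341 of them and a threshold of 0.05. All 48 mitotic genes passed this filter. Fold changes on this scale understate the change of low genes; percentages are from mean FPKM. The method was also run on simulated reads with the same spread setting for all genes and no trend with gene length. These data do have such a trend, so that run does not test the method under it. The 48 genes and all lists were chosen with earlier results of these data known, so no list was tested as a whole. Full values are given for the 2 genes of each class with the largest absolute log2 fold change and for every gene that did not pass; of other lists, at most 2 called genes per group are named, with exceptions stated. Promoters are those of RefSeq (GRCm38.p6), 1 per gene, matched by symbol, with motifs sought on both strands in Python 3.11.15; proteins were not analysed here. Alternatives were a pseudocount of 0.1, no filter, a minimum of 5 FPKM, TPM, quantile normalization, a loess correction for length (span 0.3), a replicate block, and leaving out each library. voom in limma on the recovered reads and the check of brown fat genes were added after seeing the data.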

Additional observations from a re-analysis of the deposited data

How the results depend on the processing

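The 48 mitotic genes gave 34 to 43 lower calls and 0 higher calls when single libraries were left out, with a median log2 fold change of -0.42 to -0.34. Under the other alternatives lower calls numbered 39 (pseudocount 0.1), 29 (no filter), 38 (minimum of 5 FPKM), 43 (TPM), 40 (quantile normalization), 42 (length correction), 39 (replicate block) and 39 (voom on the recovered reads, added after seeing the data), and higher calls 0 in each. Of the 40 genes that fell, 33 did so with every library left out in turn, and 29 under every alternative that tested them. The only sign that turned was that of Ube2s, to -0.017 under TPM, -0.034 under quantile normalization, -0.053 under length correction and -0.020 without siYBX1 replicate 2; single libraries left out gave -0.020 to 0.097. Over all tested genes, lower and higher calls were 1145 and 987. They were 1137 and 982 with the pseudocount of 0.1, and 664 and 577 with no filter. Leaving out single libraries gave 604 to 1056 lower and 547 to 970 higher. For the minimum of 5 FPKM, quantile normalization, length correction and voom, calls over all tested genes are not given here. Counts of the 48 genes under those settings therefore stand without that background. Of the 110 other mitosis genes, 2 were higher (Zwint and Anapc10), but 1 (Zwint) with no filter, TPM, quantile normalization, length correction, voom and each library left out. The cause was not tested.

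With the replicate block, 739 genes were lower and 607 higher over the table, and 1 of the other mitosis genes was higher. Whether same-numbered libraries were paired is not stated in the labels. Their deviations from the group means had correlations of -0.31, -0.13 and -0.25, and those of differently numbered libraries ran from -0.13 to 0.26. With 3 libraries in each group these values cannot decide on pairing, so the block is given for completeness. Birc5, Cdca8, Aurkb, Cdc25b, Cdc25c, Ndc80 and Pttg1 each lost their call without at least 1 library. With no filter Plk1 (adjusted p = 0.0505, limma), Cenpa (0.0574), Ube2c (0.0505) and Espl1 (0.0602) lost theirs too.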
